A study of Rattus norvegicus with 18 samples.

Results

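Gluconeogenesis and fructose metabolism in the obstructed rat kidney were followed through 5 enzyme genes, Pck1, G6pc, Fbp1, Khk and Pc, out of 30957 genes in the deposited expression table. The members were chosen by gene name, and where a name stood on several rows the row with most counts was to be used. The rats carried a unilateral ureteral obstruction: the left ureter is exposed through the abdomen and tied with silk, so that urine backs up and the kidney scars over days to weeks. Renal parenchyma was taken after ligation lasting 1 day (5 libraries), 3 days (5 libraries), 7 days (5 libraries) or, as labelled, 14 days (3 libraries), and all 18 libraries carry the same ligation, the same genotype entry and the same batch label, "Day  5". Sham-operated rats, also part of the design, were not analysed here, so no value below is set against an unobstructed kidney. The labels do not say whether each library came from its own rat, so the p-values measure the spread between libraries, part of which may be technical.

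Gluconeogenesis makes glucose from lactate, glutamine, glycerol and other precursors. Besides the liver, the proximal tubule of the kidney is the main site of it, and the kidney can release glucose to the blood because its proximal tubules hold glucose-6-phosphatase. Fructose enters the same cells and is trapped by ketohexokinase as fructose 1-phosphate, whose split products join the gluconeogenic or glycolytic chain. In order of the pathway, Pc encodes pyruvate carboxylase, a biotin-dependent mitochondrial enzyme that makes oxaloacetate from pyruvate. Pck1 encodes the cytosolic phosphoenolpyruvate carboxykinase, which turns oxaloacetate into phosphoenolpyruvate and is controlled mainly at transcription by cAMP, glucocorticoids, insulin and, in kidney, acidosis. Fbp1 encodes fructose-1,6-bisphosphatase, G6pc the catalytic subunit of glucose-6-phosphatase and Khk ketohexokinase.

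The symbol G6pc stood on 2 rows of the table. The row with most counts, ENSRNOG00000051344 with 17564 counts over the 18 libraries, spans 89236256 to 89244041 on the plus strand of chromosome 10 and is annotated in the table itself as proteasome activator subunit 3 (PA28 gamma). The other row, ENSRNOG00000051171 with 5706 counts, spans 89285855 to 89296213 on the same strand and is annotated as glucose-6-phosphatase. The RefSeq gene table of the rat assembly GRCr8 lists Psme3, the gene of that proteasome activator subunit, between Becn1 and Aoc3. It lists G6pc1 on the other side of Aoc3, between Aoc3 and Aarsd1, and gives both G6pc and Psme3 as older names of G6pc1. On that annotation the glucose-6-phosphatase row is used here as G6pc, and the proteasome activator row is given apart from it. This choice was made after the values of both rows had been seen. The other members each had 1 row: Pck1 (ENSRNOG00000028616, chromosome 3, 171213936 to 171219871, plus strand), Fbp1 (ENSRNOG00000017597, chromosome 17, 396180 to 417480, minus strand), Khk (ENSRNOG00000008047, chromosome 6, 26810579 to 26820959, minus strand) and Pc (ENSRNOG00000019372, chromosome 1, 219759183 to 219859848, plus strand), in the coordinates of the deposited table, whose genome build is not given in the sources used here.

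The promoters of Pck1 and G6pc are shown because these 2 genes are the hormone-controlled entry and exit steps of the pathway and had the most similar course over the first week among pairs with G6pc. The RefSeq promoter table (GRCr8) held 4 of the 5 genes and did not hold Pc. Each sequence runs 5′ to 3′ on the gene's strand, from 250 bases before the annotated start of transcription to 50 after it. Capitals mark TTACGTCA, a form of the cAMP response element, and TATAAA, the TATA box, on either strand.
Pck1, chr3:182348322-182348621, plus strand: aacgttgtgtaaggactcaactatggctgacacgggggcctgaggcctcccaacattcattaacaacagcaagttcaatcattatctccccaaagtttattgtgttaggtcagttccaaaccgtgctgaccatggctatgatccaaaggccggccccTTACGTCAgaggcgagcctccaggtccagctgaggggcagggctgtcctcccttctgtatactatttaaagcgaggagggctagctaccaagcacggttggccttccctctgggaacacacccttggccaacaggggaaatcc
G6pc, chr10:86807409-86807708, plus strand: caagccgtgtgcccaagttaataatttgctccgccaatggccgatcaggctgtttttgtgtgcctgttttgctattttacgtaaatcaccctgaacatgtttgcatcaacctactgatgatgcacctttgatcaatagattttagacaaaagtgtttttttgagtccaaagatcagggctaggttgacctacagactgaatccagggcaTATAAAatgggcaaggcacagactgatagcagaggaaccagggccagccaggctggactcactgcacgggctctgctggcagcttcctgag
Among the letters searched on both strands of the promoters were TGACGTCA and TTACGTCA (cAMP response element), the E-box CACGTG, the forkhead letters TGTTTAC, the CCAAT box and the TATA box written TATAAA. The Pck1 promoter held TTACGTCA starting 93 bases before the start and held no TATAAA in this window. Of 33469 promoters of the same length, 0.81% held TTACGTCA. The G6pc promoter held CCAAT 217 bases and TATAAA 41 bases before the start, and it held neither TGACGTCA nor TTACGTCA in this window. CCAAT was present in 37.49% and TATAAA in 14.22% of all promoters. Of these letters the Fbp1 promoter held only CCAAT, on the minus strand 150 bases before the start, and so did the Khk promoter, 15 bases after the start. No match given here overlapped another in the 2 promoters shown, CACGTG (6.42% of all promoters), TGTTTAC (3.78%) and TGACGTCA (1.83%) were found in none of the 4, and a match of letters is a description, not a site that was measured.

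Depth and composition of the libraries bear on every value below. Library totals lay between 5488540 and 12049915 counts, 22014 genes had a count, and 14511 passed the filter on low counts and were tested. The proximal tubule markers (17 found genes, among them Lrp2, Slc34a1 and Aqp1) were detected in every library, as the label renal parenchyma implies. The libraries labelled 14 days stood apart from the rest and from each other. Replicates 1 and 3 of that label had summed proximal tubule marker levels of 365 and 247 FPKM, replicate 2 had 5580 FPKM, and the other 15 libraries lay between 598 and 4986 FPKM. The summed level of 10 adipocyte markers was 250.1, 46.1 and 2501 FPKM in replicates 1, 2 and 3 labelled 14 days and 160 FPKM in replicate 5 of 1 day, against 15.4 to 57.0 FPKM in the other 14 libraries. Urothelium markers summed to 279 FPKM in replicate 1 labelled 14 days, 87.1 in replicate 5 of 1 day and 70.3 in replicate 1 of 3 days. Elsewhere they reached at most 11.8 FPKM. Collecting duct markers summed to 1043 FPKM in replicate 5 of 1 day, against 253 to 351 FPKM in the other 1-day libraries. That replicate had the lowest Pck1, G6pc, Fbp1 and Khk levels of its group. Transcripts of the mitochondrial genome made up 24.03%, 27.36% and 14.4% of the counts of the 3 libraries labelled 14 days, and 7.11% to 13.57% elsewhere. FPKM (fragments per kilobase of gene model and scaled to the library's total, a level per transcript length) describes levels below, and fold changes come from the counts with edgeR and TMM scaling, where a call means an adjusted p (Benjamini-Hochberg, over all tested genes) under 0.05.

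The 5 genes were all expressed in every library, at very different levels. By the mean FPKM over the 18 libraries, Pck1 exceeded 99.0% of the genes in the table, Fbp1 97.9%, Khk 95.5%, Pc 89.5% and G6pc 76.4%. At 1 day the order of the mean levels was Fbp1 (86.0 ± 33.8 FPKM), Pck1 (51.8 ± 30.7), Khk (20.4 ± 8.97), Pc (14.6 ± 1.93) and G6pc (6.40 ± 4.03; SD, n = 5 each). The single libraries of Fbp1 and Pck1 overlapped at 1 day, as did those of Khk and Pc, and G6pc stayed below Pc in every 1-day library.

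Pc, which supplies the oxaloacetate, had 15.8, 16.6, 11.7, 15.2 and 13.9 FPKM in replicates 1 to 5 at 1 day, 28.3, 41.3, 66.1, 32.7 and 14.6 FPKM at 3 days, 18.2, 23.0, 64.7, 10.5 and 25.6 FPKM at 7 days, and 25.0, 44.4 and 36.8 FPKM in the 3 libraries labelled 14 days. The 1-day libraries were tight, with a highest value 1.42 times the lowest. Of the 5 libraries at 3 days 4 lay above all 1-day libraries, replicate 5 lay within them, and every library labelled 14 days lay above all 1-day libraries. The 3-day and 7-day groups overlapped, and replicate 3 was the highest in both.

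Pck1, the step under the closest hormonal control, had 75.0, 88.0, 29.6, 52.3 and 14.1 FPKM at 1 day, 74.9, 373, 1033, 72.9 and 117 FPKM at 3 days, 28.3, 114, 203, 21.4 and 74.6 FPKM at 7 days, and 122, 570.0 and 272 FPKM in the libraries labelled 14 days. No other member spread as widely within the first week: the highest 3-day library had 14.2 times the level of the lowest, and the highest 7-day library 9.50 times. Replicates 2 and 3 carried the 3-day mean of 334 ± 410 FPKM, while replicates 1 and 4 were within the 1-day range, so the groups at 1, 3 and 7 days overlapped. All 3 libraries labelled 14 days were above every 1-day library.

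Fbp1, which removes a phosphate from fructose 1,6-bisphosphate, had 112, 117, 76.7, 90.2 and 33.4 FPKM at 1 day, 90.4, 185, 269, 121 and 67.0 FPKM at 3 days, 62.2, 83.4, 178, 50.4 and 89.4 FPKM at 7 days, and 45.3, 321 and 12.0 FPKM in the libraries labelled 14 days. The 4 groups overlapped throughout. The 3 libraries labelled 14 days held both the highest and the lowest Fbp1 level of the series, a span of 26.8 times.

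G6pc, which frees glucose in the last step, had 10.1, 11.1, 4.73, 4.30 and 1.74 FPKM at 1 day, 8.59, 11.8, 52.4, 15.1 and 10.3 FPKM at 3 days, 5.77, 9.50, 11.1, 4.11 and 9.37 FPKM at 7 days, and 4.28, 11.9 and 2.27 FPKM in the libraries labelled 14 days. It was the lowest member in level, with 60 to 1552 counts a library, and a single 3-day library, replicate 3, was far above the other 17. The proteasome activator row behaved otherwise: it had 43.5 to 49.8 FPKM at 1 day, 37.2 to 46.7 FPKM at 3 days, 37.7 to 47.3 FPKM at 7 days and 29.9 to 31.9 FPKM in the libraries labelled 14 days, and within a group its highest library was at most 1.26 times the lowest.

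Khk, which starts fructose breakdown, had 19.8, 34.3, 19.3, 19.6 and 9.15 FPKM at 1 day, 32.3, 47.4, 103, 36.5 and 47.6 FPKM at 3 days, 34.0, 41.0, 112, 36.1 and 60.6 FPKM at 7 days, and 16.6, 403 and 11.8 FPKM in the libraries labelled 14 days. At 3 and at 7 days every library but the lowest was above all 1-day libraries, and that lowest was above 4 of the 5. The libraries labelled 14 days did not act as a group, since replicate 2 was the highest of the series and replicates 1 and 3 lay inside the 1-day range, a span of 34.1 times.

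**Figure D1:**
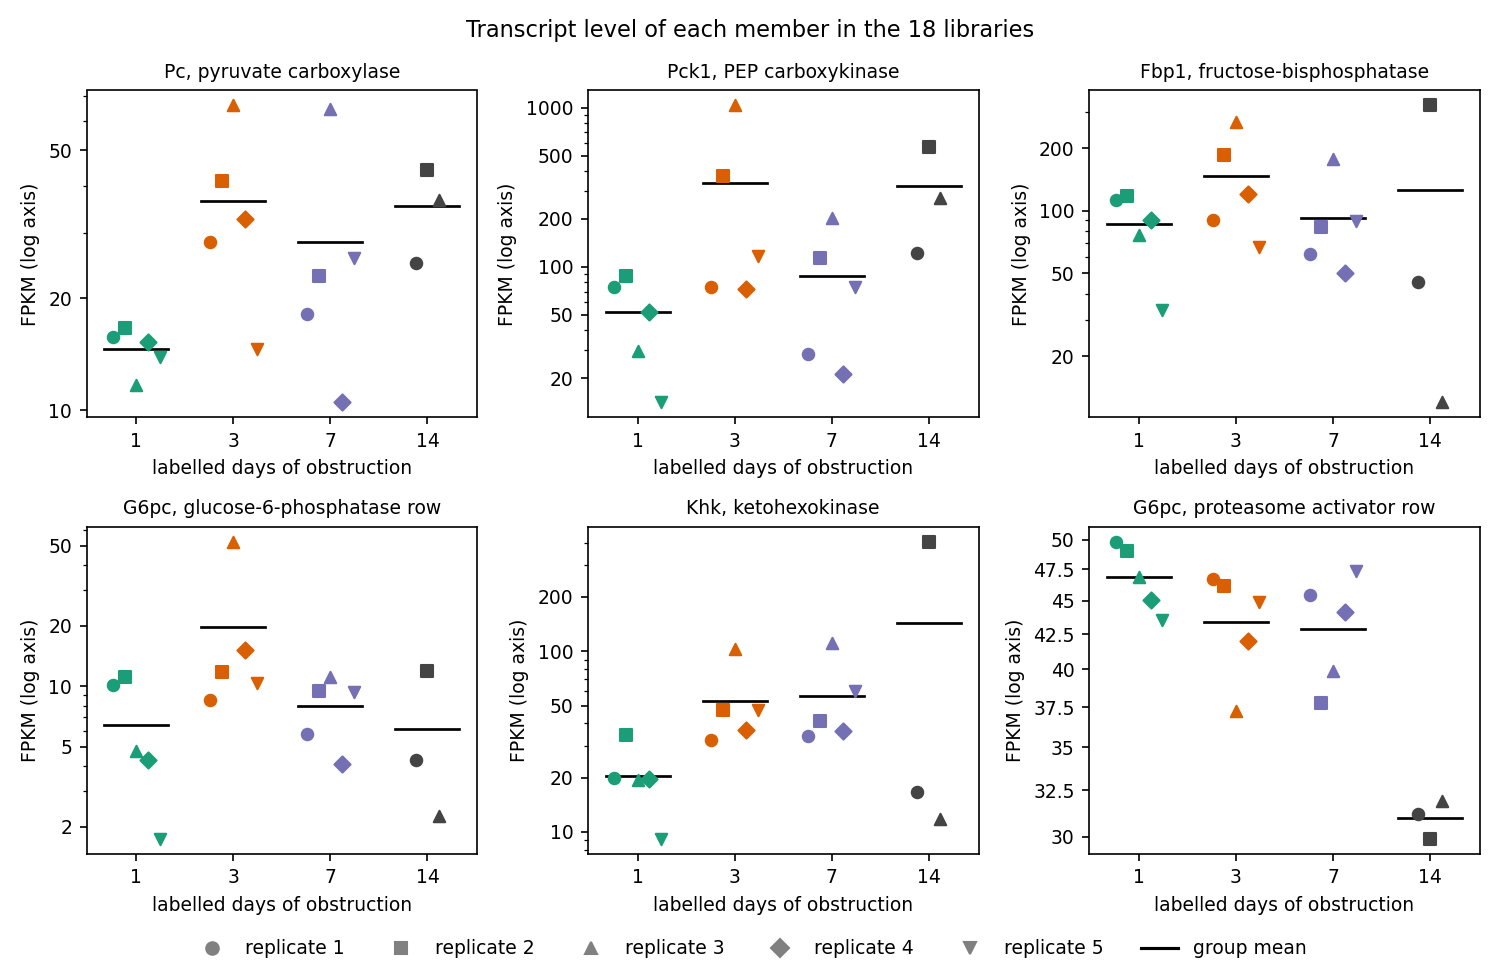
FPKM (log axis) of the 5 enzyme genes and of the proteasome activator row that shares the symbol G6pc, by labelled days of obstruction; each point is 1 library, the marker gives its replicate number and the black line is the group mean. Replicate 3 of 3 days is the highest library of its group for all 5 enzymes, and replicate 2 is the highest of the 3 labelled 14 days for all 5.

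The first comparison asks what changed between 1 and 3 days of obstruction. All 5 members had a higher fitted level at 3 days, and none was called (edgeR), where 2.27% of all tested genes were. Pck1 had the largest difference (log2 fold change 2.72 ± 0.87 SE, adjusted p 0.115), followed by G6pc (1.63 ± 0.64, adjusted p 0.187), Khk (1.38 ± 0.79, adjusted p 0.374), Pc (1.33 ± 0.45, adjusted p 0.129) and Fbp1 (0.77 ± 0.69, adjusted p 0.600). The median of the 5 was 1.38 and that of all tested genes -0.01. Unadjusted p-values were under 0.05 for 3 of them, Pck1, Pc and G6pc. DESeq2 called 2 of the 4 for which it gave a p, Pck1 (adjusted p 0.0132) and Pc (adjusted p 0.0461), where it called 6.55% of all genes. Without the libraries labelled 14 days, whose spread enters the shared variance, none was called and 10.5% of all genes were, and Pck1 (adjusted p 0.0543) and Khk (adjusted p 0.0547) lay just past the threshold. The sizes rest in part on replicate 3 of 3 days: without it the log2 fold change was 1.58 for Pck1, 0.78 for G6pc and 0.38 for Fbp1.

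Markers of the proximal tubule moved the same way in the same comparison. All 17 had a positive log2 fold change at 3 over 1 day, with a median of 1.13 and none called, and their summed level was 1210.0 to 4986 FPKM at 3 days, against 598 to 1581 FPKM at 1 day. In bulk RNA, more or fewer proximal tubule cells and more or less RNA per cell cannot be told apart. Their part in the members' differences was not tested.

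Between 3 and 7 days the fitted differences ran the other way for 4 of the 5 members, and none was called (edgeR), where 1.05% of all genes were. Pck1 was 2.03 ± 0.85 lower on the log2 scale at 7 days (log2 fold change -2.03, adjusted p 0.209) and G6pc 1.40 ± 0.63 lower (-1.40, adjusted p 0.243). Those 2 had an unadjusted p under 0.05. Fbp1 (-0.74, adjusted p 0.633), Pc (-0.44, adjusted p 0.667) and Khk (0.01 ± 0.77, adjusted p 0.997) differed by about their standard error or less. The median of the 5 was -0.74 and that of all tested genes 0.00. DESeq2 called 0 of 4, where it called 6.26% of all genes, and without the libraries labelled 14 days 0 of 5 were called, where 7.92% of all genes were. Replicate 3 of 3 days mattered here too, since without it the differences were -0.91 for Pck1, -0.56 for G6pc, -0.37 for Fbp1 and -0.07 for Pc, with a median of the 5 of -0.37. Without replicate 3 of 7 days that median was -1.14. The 17 proximal tubule markers had a median log2 fold change of -0.46, 16 of them negative and none called.

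Over the whole first week, 7 days over 1 day, the members differed by unequal amounts and none was called with all libraries. Khk was higher at 7 days by 1.39 ± 0.79 on the log2 scale, which was not called with all 18 libraries (adjusted p 0.210) and was called in the fit of the 15 first-week libraries (1.39 ± 0.43, adjusted p 0.0202). In that smaller fit the call was lost without replicate 3 of 7 days (0.97, adjusted p 0.0726). Pc was 0.89 ± 0.44 higher (adjusted p 0.155) and Pck1 0.69 ± 0.82 (adjusted p 0.581), while G6pc (0.23 ± 0.63, adjusted p 0.819) and Fbp1 (0.03 ± 0.69, adjusted p 0.983) were close to 0. Without replicate 3 of 7 days Pc stood at 0.31, Pck1 at 0.09, Khk at 0.97 and Fbp1 at -0.37, and the median of the 5 at 0.09 in place of 0.69. With all libraries edgeR called 0 of 5 members, where 25.6% of all genes were called, and none had an unadjusted p under 0.05. DESeq2 called 0 of 4, where it called 30.5% of all genes, with 1 unadjusted p under 0.05. In the fit that left out the libraries labelled 14 days 1 of 5 was called, where 38.2% of all genes were, so the share of members called was below that of all genes in each of these fits. The proximal tubule markers had a median log2 fold change of 0.77, 14 of 17 were positive, and 2 were called, both higher.

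Set against the summed proximal tubule markers of the same library, as a description with no test, the members kept different courses. Fbp1 stood at 5.59% to 8.79% of that sum at 1 day, 4.36% to 6.83% at 3 days and 3.55% to 4.79% at 7 days, so that every 7-day library was below every 1-day library. Khk stood at 1.53% to 2.17% at 1 day, 1.56% to 3.93% at 3 days and 1.94% to 3.44% at 7 days. It stood at 4.54% to 7.23% in the libraries labelled 14 days, which were above all others. The 17 markers did not move together in those libraries. At 14 over 1 day 2 were called higher and 3 lower, where 32.0% of all genes were called. At 14 over 7 days 2 were called higher and 5 lower, where 38.3% of all genes were. A ratio to their sum there cannot be read as a ratio to proximal tubule content. Pc held nearly the same medians over the first week, 1.23%, 1.36% and 1.13%. Pck1 had its highest first-week median at 3 days, 9.67% against 4.63% at 1 day and 3.28% at 7 days. G6pc had medians of 0.434% at 1 day, 0.675% at 3 days and 0.391% at 7 days, and its ranges overlapped.

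**Figure D2:**
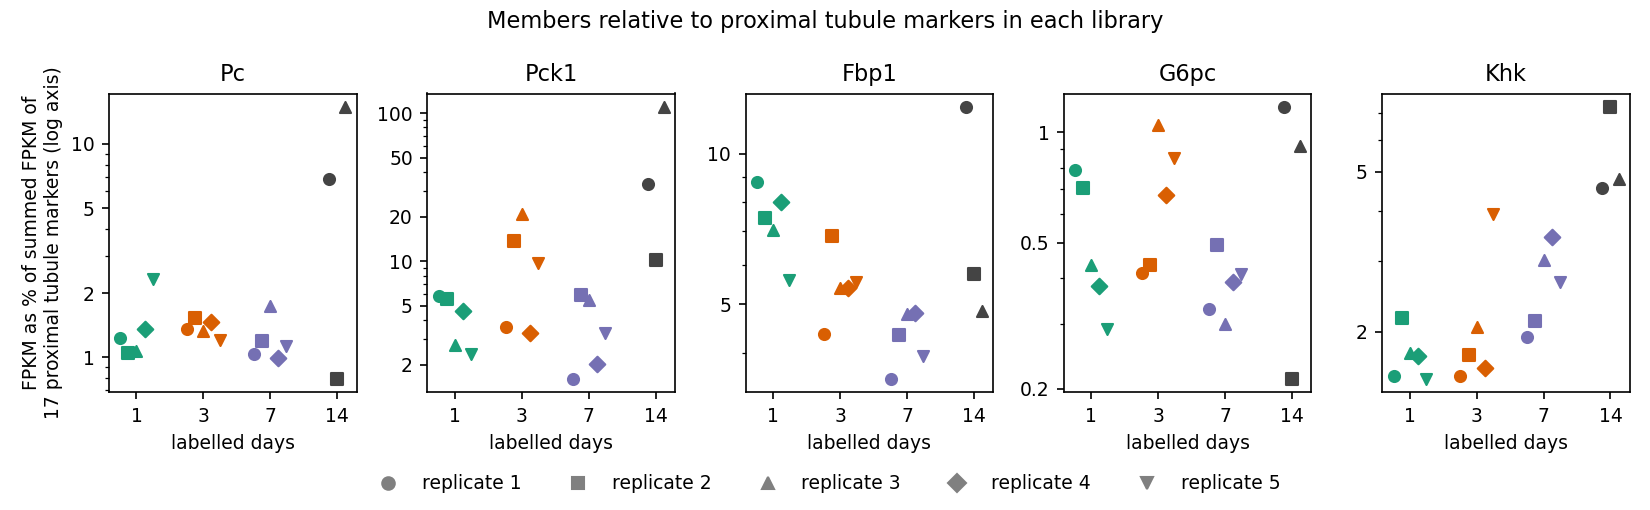
Each member's FPKM as a percentage of the summed FPKM of 17 proximal tubule markers in the same library (log axis), by labelled days; each point is 1 library. For Fbp1 the 7-day points (3.55% to 4.79%) lie below the 1-day points (5.59% to 8.79%), and Pck1 and Pc are far higher in replicates 1 and 3 labelled 14 days than in replicate 2.

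In the libraries labelled 14 days over 1 day, Khk, Pck1 and Pc rose, and each of these calls was lost without replicate 2 of that label. Khk was higher by 3.31 ± 0.90 on the log2 scale (adjusted p 0.0109), Pck1 by 2.97 ± 0.94 (adjusted p 0.0247) and Pc by 1.56 ± 0.50 (adjusted p 0.0257). Fbp1 (1.01 ± 0.78, adjusted p 0.338) and G6pc (0.31 ± 0.73, adjusted p 0.781) were not called. That makes 3 of 5, where 32.0% of all genes were called, and DESeq2 called 2 of 4, Pck1 and Pc, where it called 35.0% of all genes. The median of the 5 was 1.56 and that of all tested genes 0.06. Without replicate 2 labelled 14 days none was called, where 43.1% of all genes were: Khk then stood at -0.44 (adjusted p 0.578), Pck1 at 1.97 (adjusted p 0.115) and Pc at 1.15 (adjusted p 0.0982). Without replicate 3 of 1 day only Khk was called. With the replicate number as a block none was called, where 3985 of 14511 genes were. The row annotated as proteasome activator, the G6pc (proteasome activator row), was lower by 0.35 ± 0.11 (log2 fold change -0.35, adjusted p 0.0253), so that counting by the row with most counts gives 4 of 5 called.

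The other 2 comparisons of these libraries gave no called member with all libraries. For 14 over 7 days, where 38.3% of all genes were called, Pck1 was higher by 2.29 ± 0.93 (adjusted p 0.0627) and Khk by 1.91 ± 0.87 (adjusted p 0.0925), both at an unadjusted p under 0.05. Fbp1 (0.99, adjusted p 0.339), Pc (0.67, adjusted p 0.314) and G6pc (0.07, adjusted p 0.952) stood closer to 0. DESeq2 called 1 of 4, Pck1 (adjusted p 0.0268), where it called 41.1% of all genes. For 14 over 3 days, where 28.4% of all genes were called by edgeR and 32.2% by DESeq2, neither called a member. Khk was higher by 1.93 ± 0.87 (adjusted p 0.108, the 1 member at an unadjusted p under 0.05), G6pc lower with a log2 fold change of -1.33 ± 0.76 (adjusted p 0.208), and Pck1, Fbp1 and Pc lay between 0.23 and 0.25.

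Leaving out replicate 2 turned the direction for Khk and Fbp1 in both, for G6pc over 7 days (-1.09) and for Pck1 and Pc over 3 days. Khk then stood at -1.81 ± 0.63 over 7 days (adjusted p 0.0246, 1 of 5 members called, where 50.2% of all genes were) and at -1.82 ± 0.63 over 3 days (adjusted p 0.0269). Over 3 days G6pc (-2.50 ± 0.86, adjusted p 0.0270) and Fbp1 (-2.24 ± 0.73, adjusted p 0.0200) were then lower as well, which makes 3 of 5, where 45.2% of all genes were called. Pck1 and Pc then stood at -0.74 and -0.17 over 3 days and were not called. Pck1 and Pc are also expressed in adipocytes, where they serve glyceroneogenesis, and the adipocyte markers moved with these libraries. All 9 tested adipocyte markers were called higher at 14 over 1 day, with a median log2 fold change of 4.73, and Plin1 was at 18.7, 0 and 142 FPKM in replicates 1, 2 and 3 labelled 14 days. Replicate 2 had the highest Pck1 and Pc levels of the 3 and the lowest adipocyte marker sum, 46.1 FPKM. Plin1 was 1 of 4 adipocyte markers at 0 there, out of 10, so that library was not free of them. The same sum was 19.2 to 27.8 FPKM in replicates 1 to 4 of 1 day and 160 FPKM in replicate 5. It was 15.4 to 28.5 FPKM at 3 days and 22.3 to 57.0 FPKM at 7 days. Shares of the proximal tubule marker sum carry the limit given above. Pck1 stood at 33.4%, 10.2% and 109.8% of it and Pc at 6.84%, 0.796% and 14.9% in replicates 1, 2 and 3. The part of adipocyte RNA in these values was not tested. Liver and gut cells also express these enzymes. The 10 hepatocyte markers summed to 2.51 to 24.5 FPKM in the libraries labelled 14 days and 33.1 to 219.9 FPKM in the first week. In replicate 1 labelled 14 days all 10 were under 1 FPKM. Most of the first-week sum came from the fibrinogen chains Fga (up to 133 FPKM) and Fgb (up to 92.6 FPKM). Of the other 8, Alb was at most 1.65 FPKM in any library, Serpina1 3.80, Cps1 2.27, Ttr 0.90, Tat 0.18 and Ahsg 0.06. The levels of Apoa1 and Apob are not given here. The 6 enterocyte markers summed to 1.24 to 30.4 FPKM in the libraries labelled 14 days and 14.5 to 71.8 FPKM in the first week. Nearly all of the first-week sum was Vil1 (up to 71.7 FPKM), which proximal tubule brush borders also express. In replicate 3 labelled 14 days all 6 were under 1 FPKM, Vil1 among them. Si was at 0 in all 18 libraries, Fabp1 at most 0.25 and Apoa4 at most 1.42. The part of such cells in the members' levels was not tested.

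**Figure D3:**
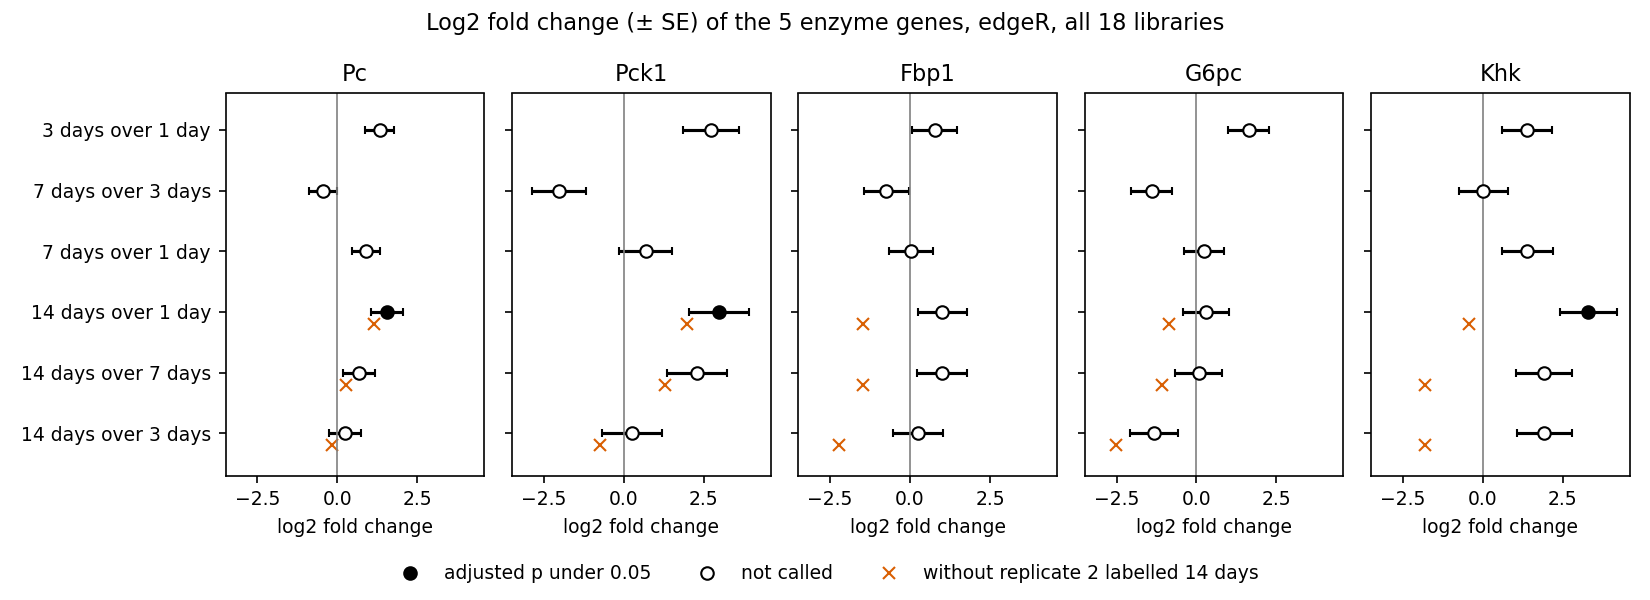
Log2 fold change (x axis, later over earlier group, bars ± SE) of each member in the 6 comparisons from the edgeR fit on all 18 libraries; filled points have an adjusted p under 0.05 and crosses give the value without replicate 2 labelled 14 days. Filled points are the 14 over 1 day values of Pc (1.56), Pck1 (2.97) and Khk (3.31), and the cross for Khk lies at -0.44.

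Across the 15 libraries of 1, 3 and 7 days the 5 members varied together. On log2(FPKM+1) the Pearson r, given as a description over libraries that share depth and tissue composition, was highest for Pck1 with Fbp1 (0.905) and Pck1 with G6pc (0.899) and lowest for Fbp1 with Khk (0.701). Without replicate 3 of 3 days these stood at 0.864, 0.820 and 0.607, and without replicate 5 of 1 day at 0.886, 0.876 and 0.565. The likeness of other genes was ranked over 10092 with a mean of at least 5 FPKM in these libraries. Pck1 was most like Ehhadh, the peroxisomal bifunctional enzyme of fatty acid oxidation (r 0.950), the dicarboxylate carrier gene Slc13a2 (0.921) and Cryl1 (0.921). G6pc was most like Vdr, the vitamin D receptor (0.910), Cryl1 (0.907) and Acmsd, an enzyme of tryptophan breakdown (0.903). Fbp1 was most like Acsm1 (0.948), Amacr (0.945) and Qdpr (0.943), Khk most like the glutathione transferases Gsta5 (0.981) and Gsta2 (0.978) and Phyhd1 (0.978), and Pc most like Gpd1, the cytosolic glycerol-3-phosphate dehydrogenase (0.953), LOC306766 (0.953) and Rac3 (0.942). Without replicate 5 of 1 day the r of these 15 pairs lay between 0.863 (G6pc with Acmsd) and 0.976 (Khk with Gsta5). Gsta5 and Gsta2 are near copies whose reads may be split between them.

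Of 15 other genes for gluconeogenic steps, isozymes and shuttles, 2 fell and none rose at 3 over 1 day, and 3 fell and none rose at 7 over 1 day, with all 18 libraries. The balance depended on the libraries labelled 14 days: in the fit of the 15 first-week libraries 5 were higher and 3 lower at 3 over 1 day, the higher ones being Slc37a4 (0.72), Mdh1 (0.64), Slc25a10 (0.80), Slc25a11 (0.44) and Mpc1 (0.48), and 2 were higher and 5 lower at 7 over 1 day. Over all tested genes, 2.27% were called at 3 over 1 day and 25.6% at 7 over 1 day with all 18 libraries. The first-week fit called 10.5% and 38.2%. These shares hold beside every list below, and a list with about that share called shows nothing particular to it. Pck2, the mitochondrial form of the carboxykinase, averaged 25.6 ± 2.63 FPKM at 3 days and 27.3 ± 4.65 FPKM at 7 days, against 37.2 ± 2.55 FPKM at 1 day (SD, n = 5 each), with log2 fold changes of -0.56 ± 0.11 (adjusted p 0.0183) and -0.53 ± 0.11 (adjusted p 0.00320). Pck1 had positive fold changes in both comparisons, as given above, and the difference between the 2 forms was not tested. Got1, the cytosolic aspartate aminotransferase, fell by 1.05 on the log2 scale at 3 days (adjusted p 0.0294) and by 1.26 at 7 days (adjusted p 0.00134), and its mitochondrial partner Got2 fell by 0.70 at 7 days (adjusted p 0.00149). These aminotransferases act in the route by which carbon leaves the mitochondrion as aspartate. The list's median was 0.31 at 3 over 1 day and 0.13 at 7 over 1 day, beside -0.01 and 0.01 for all genes. The calls of Pck2, Got1 and Got2 at 7 over 1 day held in all 18 fits that left out 1 library each. At 3 over 1 day Pck2 was lost without replicate 1 of 1 day or replicate 4 of 3 days, and Got1 was lost in 7 of the 18 such fits, those without replicates 1, 3 or 4 of 1 day or replicates 1, 2, 4 or 5 of 3 days, with an adjusted p of at most 0.0815.

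In the list of fructose and polyol genes, 11 in number, none was called at 3 over 1 day (edgeR; Dcxr and Tkfc had the smallest p, with log2 fold changes of 1.88 and 1.33 and adjusted p of 0.0677 and 0.318). At 7 over 1 day only Dcxr was called, where 25.6% of all genes were. Dcxr, the dicarbonyl and L-xylulose reductase of the glucuronate pathway, averaged 64.0 ± 30.8 FPKM at 7 days, against 17.3 ± 5.05 FPKM at 1 day, a log2 fold change of 1.82 ± 0.52 (adjusted p 0.0164). The list's median was 0.62 at 3 over 1 day and 0.20 at 7 over 1 day. Without the libraries labelled 14 days, Dcxr was called higher, together with Tkfc and Glyctk, which act on glyceraldehyde and glycerate downstream of Khk, at 3 over 1 day, and 3 genes were called higher and 1 lower at 7 over 1 day. In the libraries labelled 14 days over 1 day, 4 rose and 1 fell, and without replicate 2 of that label 1 was higher and 6 lower, with the list's median at -1.47 in place of 0.54. The share of all genes called was 32.0% with all libraries and 43.1% without that replicate. Slc2a2, the basolateral glucose and fructose carrier GLUT2, was lower with a log2 fold change of -4.82 ± 0.76 (adjusted p 2.9e-04), and Akr1b1, the aldose reductase of the polyol pathway, was higher by 5.68 ± 0.90 (adjusted p 3.2e-04). Slc2a2 stood at 0.270 to 6.51 FPKM in the libraries labelled 14 days, all below the 53.5 to 134 FPKM at 1 day. Akr1b1 ranged from 9.17 to 2940 FPKM in the libraries labelled 14 days, against 19.7 to 92.7 FPKM at 1 day, so that its lowest library went the other way. Both kept their call in all 18 fits that left out 1 library. Tkfc (2.22), Slc2a5, the apical fructose carrier GLUT5 (2.76), and Dcxr (1.88) lost theirs without replicate 2 labelled 14 days, as Khk did, with lowest values over the 18 fits of -0.81 for Tkfc, -2.29 for Slc2a5 and 1.01 for Dcxr, and Tkfc and Slc2a5 also lost it in 4 and 5 of the fits without a 1-day library. Akr1b1 is abundant in the renal medulla, and the summed level of 7 collecting duct markers was 423 to 1543 FPKM in the libraries labelled 14 days, against 253 to 1043 FPKM at 1 day. Their part in it was not tested.

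Substrate supply showed opposite calls within 1 list of 14 genes, with 1 higher at 3 over 1 day and 1 higher and 2 lower at 7 over 1 day, beside a list median of 0.25 and -0.34. In these comparisons 2.27% and 25.6% of all genes were called. Ldhb, the heart-type lactate dehydrogenase subunit, rose to 353 ± 53.0 FPKM at 3 days and 360 ± 28.3 FPKM at 7 days, against 165 ± 32.1 FPKM at 1 day, with log2 fold changes of 1.08 ± 0.21 (adjusted p 0.0135) and 1.04 ± 0.21 (adjusted p 0.00206). Hlcs, the ligase that attaches biotin to pyruvate carboxylase and the other carboxylases, fell to 1.81 ± 0.602 FPKM at 7 days, against 5.53 ± 1.08 FPKM at 1 day (log2 fold change -1.69 ± 0.24, adjusted p 2.5e-04), and was also lower at 7 over 3 days (-1.06 ± 0.24, adjusted p 0.0472). That second call of Hlcs was kept in 6 of the 18 fits that left out 1 library (highest adjusted p 0.127), and the first in all 18. In the fit of the 15 first-week libraries 3 were higher at 3 over 1 day, Ldhb, Gk (1.17) and Gpd1 (1.26), and 3 were higher and 3 lower at 7 over 1 day. In the libraries labelled 14 days over 1 day 2 genes of the list rose and 3 fell, and without replicate 2 of that label 1 rose and 7 fell. Those fits called 32.0% and 43.1% of all genes.

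Of 18 transcriptional regulators none was called at 3 over 1 day, and 2 rose and 3 fell at 7 over 1 day, with list medians of 0.22 and 0.31. In the fit of the 15 first-week libraries 7 were higher and 3 lower at 7 over 1 day, so more rose than fell there. At 7 over 1 day 25.6% of all genes were called with all libraries and 38.2% in that fit. Creb1, whose product binds the cAMP response element, fell to 4.24 ± 1.29 FPKM at 7 days, against 8.14 ± 1.34 FPKM at 1 day (log2 fold change -1.02 ± 0.23, adjusted p 0.00402). Foxo1, an insulin-restrained activator of Pck1 and G6pc (-0.63 ± 0.17, adjusted p 0.0105), and the fatty acid sensor Ppara (-1.16 ± 0.31, adjusted p 0.0129) also fell. Nr4a1, an immediate early nuclear receptor (1.43 ± 0.36, adjusted p 0.00862), and Cebpb (0.87 ± 0.22, adjusted p 0.00879) rose. Each of these 5 kept its call in all 18 fits that left out 1 library. At 3 over 1 day Klf15 (1.43, adjusted p 0.125) and Esrra (0.50, adjusted p 0.133) had the smallest p, and without the libraries labelled 14 days 5 regulators were called higher there, among them Esrra, Mlxipl, Klf15 and Hnf4a. Hnf4a also belongs to the proximal tubule markers.

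Of 9 insulin signalling genes none was called at 3 over 1 day and at 7 over 1 day 1 rose and 5 fell, with a list median of -0.28. The share of all genes called at 7 over 1 day was 25.6%. Insr, the insulin receptor, fell to 4.91 ± 0.884 FPKM at 7 days, against 10.2 ± 3.96 FPKM at 1 day (log2 fold change -1.12 ± 0.19, adjusted p 8.4e-04), and Pdpk1, the kinase that activates Akt, fell by 1.35 (adjusted p 8.8e-04). Pik3ca (-0.28), Igf1r (-0.63) and Akt2 (-0.31) fell by less, and Irs2, the substrate that couples the receptor to the phosphoinositide kinase, rose by 0.79 (adjusted p 0.0178). Insr, Pdpk1, Pik3ca and Irs2 kept their calls in all 18 fits with 1 library left out, Igf1r lost its call without replicate 5 of 7 days, and Akt2 kept its call in 6 of the 18, losing it in each fit without a first-week library other than replicate 2 of 1 day, replicate 3 of 3 days or replicate 2 of 7 days.

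Glycolysis shares its reversible steps with gluconeogenesis and opposes it at the irreversible ones. Of 9 genes of the reversible steps, 4 fell and none rose at 7 over 1 day with all 18 libraries, and none was called at 3 over 1 day. Pgk1 (-0.57 ± 0.11, adjusted p 0.00161), Gapdh (-0.39 ± 0.09, adjusted p 0.00627), Pgam1 (-0.59 ± 0.14, adjusted p 0.00669) and Eno1 (-0.39 ± 0.10, adjusted p 0.0125) stand next to each other in the chain between glyceraldehyde 3-phosphate and phosphoenolpyruvate, and all 4 kept their calls with any 1 library left out. The list's median was 0.04, with 5 of the 9 fold changes positive. Among 14 tested genes of irreversible steps and lactate output, 1 rose and 3 fell at 7 over 1 day, with a median of -0.04. Beside both lists, 25.6% of all genes were called in this comparison. In the fit of the 15 first-week libraries the reversible list had 1 gene higher at 3 over 1 day. At 7 over 1 day it had 1 higher and 4 lower. The irreversible list had 2 higher and 2 lower at 3 over 1 day and 2 higher and 3 lower at 7 over 1 day. That fit called 10.5% and 38.2% of all genes. Hk3, a hexokinase of myeloid cells, rose by 2.38 ± 0.63 (adjusted p 0.0109), and the summed level of 9 monocyte and macrophage markers was 679 to 3228 FPKM at 7 days, against 239 to 541 FPKM at 1 day; the part of those cells in it was not tested. Slc2a1 (-0.42, adjusted p 0.0309), Ldha (-0.58, adjusted p 0.0315) and Pfkfb3 (-2.72, adjusted p 0.0428) fell, and each lost its call in several of the fits that left out 1 library, Slc2a1 and Ldha in 6 of 18 and Pfkfb3 in 12. Without replicate 5 of 1 day Pfkfb3 stood at -1.09.

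**Figure D4:**
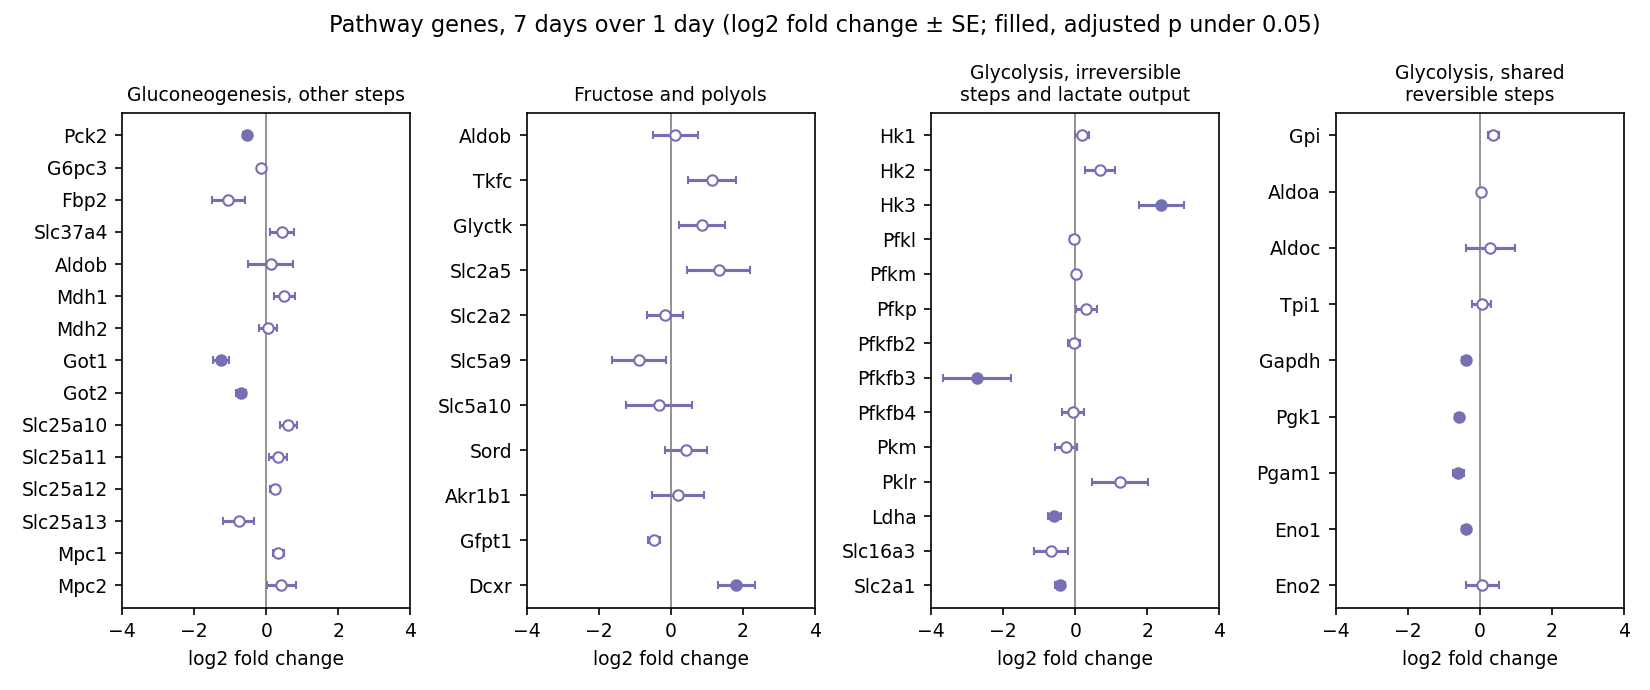
Log2 fold change (7 days over 1 day, bars ± SE) of the genes of 4 pathway lists from the edgeR fit on all 18 libraries; filled points have an adjusted p under 0.05. The called genes of the gluconeogenesis list and of the shared reversible steps all lie below 0, among them Got1 (-1.26), Pck2 (-0.53) and Pgk1 (-0.57), and in the fructose list only Dcxr (1.82) is filled.

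At 7 over 3 days Hlcs was the only gene called in the 7 pathway lists with all 18 libraries, a call that most single omissions ended, as given above. The list medians lay between -0.43 and -0.07, beside 0.00 for all genes, of which 1.05% were called. In the fit of the 15 first-week libraries more genes passed at 7 over 3 days: Got2 (-0.39), Hlcs (-1.07), the regulators Ppargc1a (-0.76), Foxo1 (-0.59) and Ppara (-1.09), Insr (-0.72) and Pdpk1 (-0.99) were lower, and Nr4a1 (1.27) and Hk3 (2.00) higher. That fit called 7.92% of all genes. The calls in the libraries labelled 14 days over 1 day were spread over all lists. Among all genes 32.0% were called there, and 43.1% without replicate 2 of that label. In the gluconeogenesis list 3 genes rose and 4 fell, and without replicate 2 of that label 3 rose and 7 fell, with the median at -0.54 in place of 0.31. Pck2 was lower still than at 7 days (-1.28 ± 0.14, adjusted p 1.6e-05). Among the regulators 3 rose and none fell, and without replicate 2 of that label 3 rose and 5 fell. Among the insulin signalling genes 2 rose and 1 fell, and that one was Pik3r1, a regulatory subunit of the phosphoinositide kinase (-2.21 ± 0.23, adjusted p 1.3e-05). Of the irreversible glycolytic steps 4 rose and none fell, and without replicate 2 of that label 8 rose and 1 fell. Among the 4 were Pkm (1.47 ± 0.35, adjusted p 0.00512), Hk1 (0.90 ± 0.22, adjusted p 0.00549) and Pfkm (0.51 ± 0.10, adjusted p 0.00120). Of the reversible steps Aldoc rose (3.75 ± 0.73, adjusted p 0.00135) and Gapdh fell by 0.35 (adjusted p 0.0214). Pck2, Pik3r1, Pkm, Hk1, Pfkm and Aldoc kept their calls with any 1 library left out, and Gapdh lost its call without replicate 3 labelled 14 days.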

How the data were processed

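Poly(A) RNA of rat renal parenchyma was sequenced in 18 libraries, grouped by the labelled days of ligation. The submitters' processing notes list fastp 0.19.7 and HISAT2 2.0.4. Which counting tool, strand setting, annotation and genome build were used is not given in the sources used here. Per the file headers, the authors deposited a read count per gene and library. They also deposited FPKM, per the file headers, and dividing the counts by the column total and by 1 length per gene gave the deposited values (14528 genes, largest ratio 1.00005).

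The members and all gene lists were chosen with earlier results of these data known. Counts of 14511 genes (filterByExpr, min.count 10, min.total.count 15) were fitted with edgeR 4.0.16 in R 4.3.3, TMM factors, quasi-likelihood, 1 coefficient per group over all 18 libraries, Benjamini-Hochberg adjusted; standard errors are the log2 fold change over the square root of F. The script was tested on simulated data. FPKM entered the limma 3.58.1 alternatives as log2(FPKM+1) and log2(FPKM+0.1), and changes on that scale understate those of low genes. DESeq2 1.42.0 gave no p for Khk. Between libraries of a group no pair agreed within sampling noise (lowest chi-square per gene 6.43, 33 pairs). Deviations of same-numbered libraries from their group means correlated at -0.424 to 0.395, with 10 of 24 pairs over 0.1. Differently numbered libraries were not compared, so this cannot decide whether replicate numbers pair libraries. The reported fit assumes no pairing.

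All members are named. Of the pathway lists, called genes are named (up to 6 a list, smallest p first), otherwise up to 2 with the smallest p. For each member the 3 genes with the highest Pearson r are named. Hkdc1, Acsm2 and Myh4 were not found by symbol. A few genes and motifs that the rule would name are not reported here. For Nr3c1, Pfkfb4 and Pkm the row with most counts was used. Alternatives were DESeq2, other scalings, no filter, limma, 2 groups alone, leaving out mitochondrial genes, the libraries labelled 14 days or each library in turn, a robust variance and the replicate number as a block. The omission of replicate 5 of 1 day beside the libraries labelled 14 days, the use of replicate 2 alone of those and the other G6pc row were added after seeing the data.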

Additional observations from a re-analysis of the deposited data

Results flagged for a closer look

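Among 18 groups of 5 libraries (the 5 members and the proteasome activator row at 1, 3 and 7 days) tested for a single library far from the rest (Dixon's criterion, 95% level, critical value 0.71), 3 were picked out. That level assumes normally distributed values and independent groups. FPKM was skewed and the members varied together, so the number flagged cannot be set against a chance rate. G6pc in replicate 3 of 3 days stood at 52.4 FPKM, against 8.59 to 15.1 FPKM in the other 4 libraries of that group, a gap of 0.851 of the group's range. Khk in the same library stood at 103 FPKM, against 32.3 to 47.6 FPKM in the others (0.782 of the range). That library also had the highest summed proximal tubule marker level of the first week, 4986 FPKM, and a mitochondrial share of 13.35% of counts. Pc in replicate 3 of 7 days stood at 64.7 FPKM, against 10.5 to 25.6 FPKM in the others (0.721 of the range), and that library had the highest proximal tubule marker sum of its group, 3710 FPKM. The part of tissue composition in these values was not tested.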

How the results depend on the processing

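The 5 members and the proteasome activator row gave 36 fold changes and 1116 values under alternatives. Of these 1013 kept direction and side of the threshold. With the direction kept, 19 lost a call and 32 gained one. The other 52 turned direction, with or without a change of call, mostly fold changes near 0 or in the libraries labelled 14 days. The number of the 5 members called moved as follows. At 3 over 1 day, with none called in the reported fit, DESeq2 called 2 and the 2 groups alone 1. At 7 over 1 day, again from none, 1 (Khk) was called with the 2 groups alone, without the libraries labelled 14 days, without those and replicate 5 of 1 day, and with only replicate 2 of those labelled 14 days, and 0 to 1 with each library left out in turn. At 14 over 7 days, from none, DESeq2 called 1, replicate 2 alone gave 3 and leaving out 1 library 0 to 2. At 14 over 3 days replicate 2 alone gave 1 and leaving out 1 library 0 to 3. At 14 over 1 day, with 3 reported, limma called 1 with either pseudocount (1 or 0.1), the replicate block 0 and leaving out 1 library 0 to 3, the 0 without replicate 2 labelled 14 days and 1 without replicate 3 of 1 day. Over all genes, 330 were called at 3 over 1 day in the reported fit, against 951 with DESeq2, 1203 with the 2 groups alone, 219 with library totals, 171 with no filter, 139 with the block and 1463 without the libraries labelled 14 days. At 7 over 3 days the reported 152 stood against 909, 981, 50, 64, 39 and 1108 in the same order, 100 without mitochondrial genes and 42 with limma on log2(FPKM+0.1). With only replicate 2 labelled 14 days these 2 comparisons gave 1372 and 1067, and without the libraries labelled 14 days and replicate 5 of 1 day 2016 and 1772, that last fit also calling 5841 at 7 over 1 day, against 3713 reported. At 14 over 1, 3 and 7 days the 2 groups alone gave 1628, 1851 and 3153, against 4646, 4119 and 5560 reported. Whether the replicate numbers pair the libraries was not settled, so the block fit stands beside the reported fit.

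Reversals by scaling, method or choice of libraries: with library totals alone Pck1 was at -0.06 at 14 over 3 days, G6pc at -0.38 at 14 over 7 and -0.06 at 14 over 1 day, Fbp1 at -0.21 and Pc at -0.05 at 14 over 3 days, and with upper-quartile factors G6pc was at -0.01 at 14 over 7 days. With limma on log2(FPKM+1) and log2(FPKM+0.1), G6pc was at -0.50 and -0.60 at 14 over 7 and -0.09 and -0.11 at 14 over 1 day, Fbp1 at -0.55 and -0.58 at 14 over 7, -1.18 and -1.21 at 14 over 3 and -0.47 and -0.49 at 14 over 1 day, and Khk at -0.21 and -0.24 at 14 over 7 and -0.14 and -0.18 at 14 over 3 days. With the replicate block G6pc was at -0.41 at 14 over 7 and -0.09 at 14 over 1 day and Fbp1 at -0.45 at 14 over 3 days. Without the libraries labelled 14 days and replicate 5 of 1 day, G6pc was at -0.02 and Fbp1 at -0.19 at 7 over 1 day. With replicate 2 alone labelled 14 days, the G6pc (proteasome activator row) was at 0.09 over 7 and 0.01 over 3 days. The cause was not tested.

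With each library left out in turn, at 14 over 3 days Pck1 ranged from -0.74 to 1.37, Fbp1 from -2.24 to 0.78, Khk from -1.82 to 2.46 and Pc from -0.17 to 0.58. At 14 over 7 days G6pc ranged from -1.09 to 0.51, Fbp1 from -1.48 to 1.53 and Khk from -1.81 to 2.45. At 14 over 1 day G6pc ranged from -0.87 to 0.73, Fbp1 from -1.48 to 1.54 and Khk from -0.44 to 3.84. The low end of each of these ranges is the value without replicate 2 labelled 14 days. At 7 over 1 day G6pc ranged from -0.02 to 0.56 and Fbp1 from -0.37 to 0.20, and at 7 over 3 days Khk from -0.41 to 0.43. Depth limits G6pc most, with 60 to 1552 counts a library.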
